A study of Mus musculus with 14 samples.

Results

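Knockout-only H3K27me3 regions are stretches of the mouse genome that carried a called H3K27me3 peak in both knockout libraries and in neither control library. They were found by merging the peaks of the 4 H3K27me3 lists wherever these overlapped by at least 1 bp on chromosomes 1 to 19. Of 62035 merged regions, 6189 met this rule, which is 9.98% of them. The regions were thus chosen by the presence or absence of H3K27me3 peaks in these same 4 libraries. For that reason everything given here on their H3K27me3 is a description, with no test. H3K27ac was not used to choose them, and it is compared between genotypes further on.

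The series mapped both histone marks by CUT&Tag in regulatory T cells sorted by FACS. In this assay an antibody brings a transposase to the marked chromatin, which is cut out and sequenced. Control cells came from mice written Foxp3YFPcre;wt and knockout cells from mice written Foxp3YFP-Slc31a1△;wt, called chimeras in the labels, so that both groups carry the Foxp3 allele with YFP. Slc31a1 encodes CTR1, the copper importer of the cell surface, and its deletion is tied to Foxp3, the transcription factor that defines regulatory T cells. The ages of the mice are not given in the sources used here. H3K27me3 was mapped in 2 control and 2 knockout chimeras, numbered 1 and 2, and H3K27ac in 3 control and 3 knockout chimeras, numbered 2 to 4. Chimera 2 of each genotype therefore gave libraries of both marks. Below, libraries are numbered within each mark, so H3K27ac libraries 1 to 3 came from chimeras 2 to 4. H3K27ac knockout 1 and H3K27me3 knockout 2 are thus from the same chimera, as are H3K27ac control 1 and H3K27me3 control 2. For that reason no comparison of H3K27ac at or near the knockout-only regions is fully independent of how these were chosen. The labels do not say whether each numbered chimera was a separate animal, so p-values measure the spread between these libraries only. The cell type was not checked by marker genes, since no gene annotation of the files' genome build, mm39, was used, and for the same reason regions are given by position and not by gene.

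H3K27me3 is the trimethylation of lysine 27 on histone H3, set by Polycomb repressive complex 2. It is found over silent developmental and lineage genes, often as broad domains, and PRC2 can extend it from an existing domain into neighbouring chromatin because the complex binds the mark it makes. H3K27ac, the acetylation of the same lysine, lies on active promoters and enhancers, and a single histone tail cannot carry both at that residue.

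The 4 H3K27me3 lists were of unequal length and made at unequal thresholds. Control 1 held 7507 peaks on chromosomes 1 to 19, with −log10 p from 2.02 to 7.21. Control 2 held 43253, knockout 1 held 36053 and knockout 2 held 56634, and none of these 3 lists had a peak with a −log10 p under 9.0. Control 1 therefore stands apart: its strongest peak lies below the weakest peak of the other libraries. It removed only 12 candidate regions, since the rule without control 1 gave 6201 regions, and the absence of a region in controls rests on control 2 alone. The genome-wide background that served as the lowest bar for calling a peak, read back from fold and −log10 p, was 3.61 fragments in control 2, 3.19 in knockout 1 and 4.73 in knockout 2, each on its own list's scale and in no order by genotype. In knockout 1 the background values came in steps of 0.565, taken here as the worth of 1 scaled background fragment, and in the other 2 lists the step was taken as 1. On that reading, with the narrowest peak of each list as the fragment length, the library used as background held 16.1 fragments per kb for control 2, 20.6 for knockout 1 and 20.7 for knockout 2. The depth of that background library and the genotype cannot be told apart in these 3 lists.

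Knockout-only regions were shorter than the regions that control 2 shared with both knockouts. Their median width was 739 bp, with the middle 50% between 558 and 1023 bp and a full range of 277 to 4287 bp. Regions with a peak in control 2 and both knockouts, with or without one in control 1, numbered 18653 and had a median width of 1685 bp. Of these, 3857 had a peak in all 4 libraries, with a median width of 4075 bp. Only 147 knockout-only regions, 2.38%, reached 2 kb, against 41.8% of the regions of control 2 and both knockouts. They were wider than regions found in 1 library alone: the median width was 342 bp for the 4967 regions of control 2 only, 388 bp for the 3148 of knockout 1 only and 386 bp for the 17671 of knockout 2 only. They were no wider than a class of like make-up that held a control peak. Regions of control 2 and knockout 2 without a knockout 1 peak numbered 10711, with a median width of 740 bp. The 440 regions of control 2 and knockout 1 without a knockout 2 peak had a median of 600 bp. A region merged from 2 lists is at least as wide as its wider peak, which bears on the order of these widths. The width depends on the lists: the median was 1951 bp with the 4 lists cut to equal length, and with the rule eased by leaving out 1 library it was 416 bp without knockout 1, 442 bp without knockout 2 and 1086 bp without control 2.

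Together the knockout-only regions covered 5.27 Mb. They held 17.6% of the peaks of knockout 1 and 11.7% of its bases under peaks. In knockout 2, which had the longest list, they held 11.3% of the peaks and 6.95% of the bases. Most were a single peak in each list: 6053 of the 6189 held 1 peak of knockout 1 and 6001 held 1 peak of knockout 2. Within a region the median length under peaks was 484 bp in knockout 1 and 578 bp in knockout 2. The peaks overlapped only in part, with a median of 53.7% of a region's width under the peaks of both knockouts.

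As deposited, the knockout lists held these regions' peaks mostly below their middle. Rank was read from the authors' −log10 p, as a percentile within the whole list, where 100 is the strongest peak. A region with several peaks in a list took the strongest of them. In knockout 1, 6331 peaks lay in the 6189 knockout-only regions, and 26118 in the 18653 regions of control 2 and both knockouts. The second class thus more often took the best of several peaks, which raises its percentiles. The median percentile was 38.6 in knockout 1 and 43.1 in knockout 2, against 63.4 and 78.9 for regions with a peak in control 2 and both knockouts. On the authors' own scale the median −log10 p was 13.9 in knockout 1 and 17.3 in knockout 2. The strongest 25% of both lists held 151 knockout-only regions, 2.44% of them, against 28.8% of the regions of control 2 and both knockouts. At the other end, 649 lay in the weakest 25% of both lists, which is 10.5%. Among the 1000 strongest peaks, 25 knockout-only regions appeared in knockout 1 and 0 in knockout 2, and the best ranks reached were 162 and 1214. Across the 6189 regions, the percentiles in the knockouts had a Spearman rho of 0.21, against 0.46 across the regions of control 2 and both knockouts. These regions share their libraries and were all chosen for passing a threshold in both lists, so the values describe the lists. The median of the mean percentile over both knockouts, 41.5, also moved with the lists. It was 91.7 with the 4 lists cut to equal length, where only the strongest peaks remain while ranks still refer to the full lists, 53.1 with 3 lists of equal length and control 1 left out, and 56.9 without control 2.

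**Figure D1:**
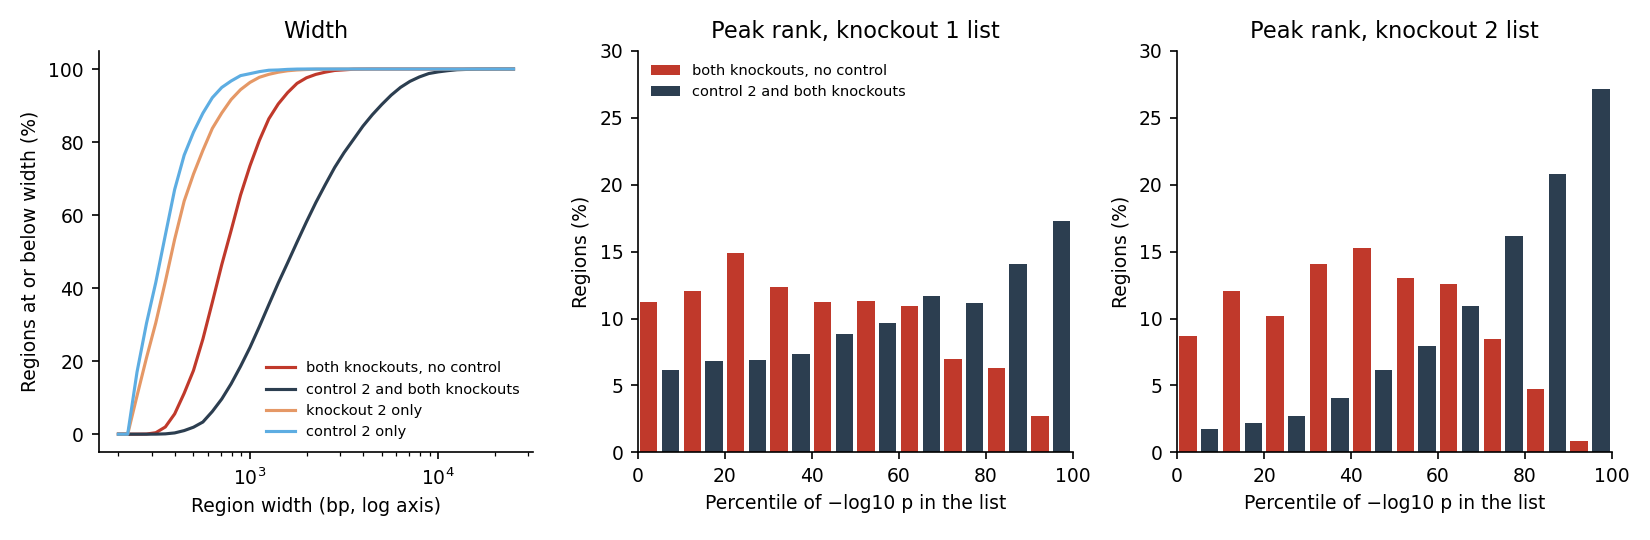
Left, cumulative share of regions (percent) by width (bp, log axis) for 4 classes of merged H3K27me3 regions; middle and right, share of regions (percent) in each step of 10 percentiles of −log10 p in knockout 1 and in knockout 2. Knockout-only regions (red) lie in width between the regions of 1 library and those of control 2 and both knockouts (dark). They thin out towards the strongest 10% of both lists, where the dark class is most frequent.

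In knockout 1 the fold enrichment and −log10 p of a peak give its height in whole fragments. Peaks of knockout-only regions had a median height of 27 fragments, with the middle 50% between 24 and 30. The median was 33 fragments for peaks of regions shared by control 2 and both knockouts. The lowest height that passed at the genome-wide background was 19 fragments. Of the peaks in knockout-only regions, 38.5% had been called against that genome-wide background, the lowest used in the list. The share was 17.1% for the peaks in regions of control 2 and both knockouts. Knockout-only peaks were thus lower and lay more often in surroundings of low background. Their median fold enrichment, 5.72, was close to the 5.55 of the other class.

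Several regions stood well above this middle. Ranked by mean percentile over both knockouts, the first was chr2:123931593-123933025, 1433 bp wide, with a −log10 p of 30.6 in knockout 1 and 49.3 in knockout 2. It ranked 420 and 2458 in these lists, with no other knockout-only region within 50 kb. The nearest merged region with a control 2 peak lay 516 kb away. The next was chr16:91079234-91080321, with a −log10 p of 28.0 and 43.5, and it lay 1.22 kb from such a region. The third, chr7:136855243-136856590, had 25.6 and 44.0 and lay 0.353 kb from one. These strong examples were thus found both far from and right beside regions that carried H3K27me3 in control 2. Of the 10 highest by this ranking, 8 lay within 3 kb of a region shared with control 2, 1 lay 24.6 kb away and 1 was the isolated region on chromosome 2. Those of this group not yet named are chr6:17466098-17467105, chr4:118875915-118877106, chr1:159935486-159935934, chr8:58229588-58230274, chr9:15509288-15511348, chr16:36389528-36390543 and chr6:119114438-119115501, with mean percentiles from 91.4 to 94.1.

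The 5 widest regions had mean percentiles between 50.5 and 84.6, above the 41.5 of the whole set. The widest region, chr11:112866467-112870753, spanned 4287 bp, of which 3759 bp were under peaks of knockout 2 and 1389 bp under peaks of knockout 1. Its percentile was 91.3 in knockout 2 and 55.8 in knockout 1, and it lay 190 kb from the nearest region with a control 2 peak. The second widest, chr2:69962639-69966608, spanned 3970 bp at percentiles of 47.3 in knockout 1 and 53.7 in knockout 2. The other 3 of the 5 widest spanned 3544 to 3743 bp. They were chr11:101948787-101952529, at percentiles of 36.4 in knockout 1 and 67.4 in knockout 2, chr11:103389796-103393532, at 75.5 and 40.1, and chr12:116603691-116607234, at 90.6 and 78.6.

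The rule has a sharp edge, because a region enters or leaves it by the touch of a single control peak. Just inside it were chr8:125535327-125535942, which abutted a region with a control 2 peak, and chr2:170332719-170334073 and chr11:118795672-118796327, each 1 bp from one. The edge of such a region can be a knockout peak, so the control 2 peak itself may lie farther off. Just outside were chr2:120924632-120925964, which shared 5 bases with a control peak, chr6:71046289-71046982 with 6 and chr11:116785518-116786906 with 7. Such cases were few: 96 of the 6189 regions lay closer than 100 bp to a region with a control 2 peak. Conversely, 64 of the 18665 regions of both knockouts and a control shared under 100 bases with control peaks.

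To see whether these regions extend H3K27me3 that control cells also carry or stand apart from it, the distance to the nearest shared region was measured. A shared region is one with a peak in control 2 and in at least 1 knockout, and there were 29804. Its edge can be a knockout peak, so the control 2 peak inside it may lie farther off than the gap given. Most knockout-only regions lay close to a shared region. The median gap was 1772 bp, with the middle 50% between 587 and 6871 bp. A shared region lay within 500 bp of 21.2% of them, within 1 kb of 37.6%, within 5 kb of 70.3% and within 10 kb of 80.1%, which is 4956 regions. On this measure, a position next to shared H3K27me3 was common and isolation rare, as it also was for the regions of 1 library described below.

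The position relative to the shared regions fell into 4 kinds. Shared regions within 10 kb on both sides were found for 2162 regions (34.9%), against 29.4% of the regions of control 2 only, 28.9% of knockout 1 only and 31.1% of knockout 2 only. For 2794 (45.1%) a shared region lay within 10 kb on a single side, against 44.2%, 45.6% and 43.5% in those classes. The nearest was 10 to 50 kb away for 820 (13.2%), and none lay within 50 kb of 413 (6.67%). The kinds differed little in width and strength: the median width was 748, 736, 712 and 780 bp in that order, the median percentile was 41.1, 40.1, 38.6 and 38.6 in knockout 1 and 44.5, 41.9, 38.6 and 44.5 in knockout 2. In the strongest 25% of both lists were 19 of the 413 isolated regions, 4.60%, and 2.78% of those with shared regions on both sides.

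Closeness to shared H3K27me3 was not unlike that of regions found in 1 library. Within 10 kb of a shared region lay 73.7% of the regions of control 2 only, 74.5% of those of knockout 1 only and 74.6% of those of knockout 2 only, against the 80.1% of knockout-only regions. Their median gaps were 2566, 2702 and 2468 bp. Shared regions lay closer still to each other, with a median gap of 684 bp and 88.1% within 10 kb of another. Knockout-only regions therefore sat between the regions of 1 library and the shared ones, and the regions that only control 2 carried also lay mostly beside shared H3K27me3. With the 4 lists cut to equal length, 904 regions met the rule and 45.0% of them lay within 10 kb of a shared region. With control 1 left out and the other 3 lists cut to equal length, 4991 met it and the share was 77.0%.

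**Figure D2:**
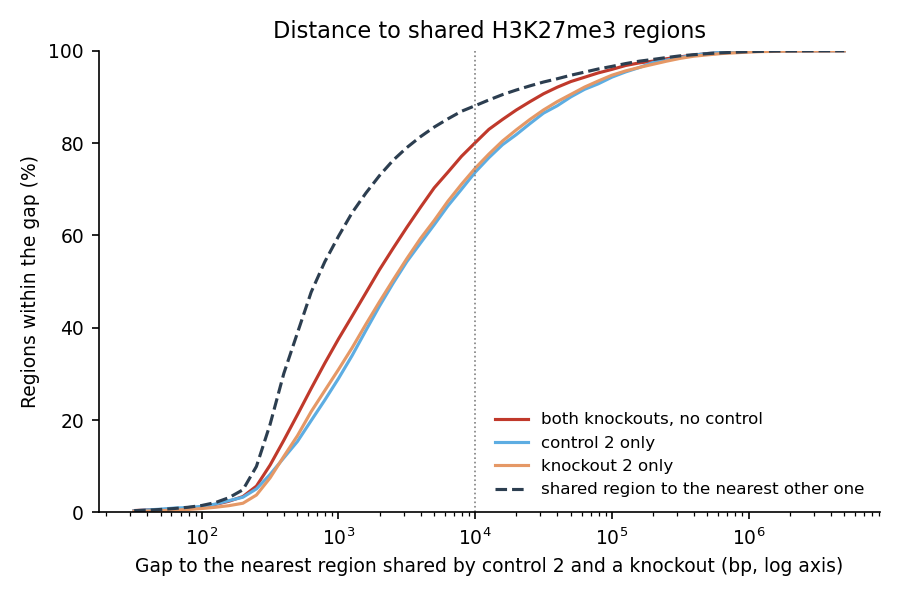
Cumulative share of regions (percent) by the gap to the nearest H3K27me3 region shared by control 2 and a knockout (bp, log axis); the dashed line gives the gap from each shared region to the nearest other shared region, and the dotted vertical line marks 10 kb. At 10 kb the knockout-only curve stands at 80.1%, between 88.1% for shared regions and 73.7% to 74.6% for regions of 1 library.

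The most isolated regions were far from any H3K27me3 of control 2. The farthest, chr6:77219614-77221753, was 2140 bp wide and 3.87 Mb from the nearest region with a control 2 peak. Its percentiles were 80.2 in knockout 1 and 92.1 in knockout 2. The second, chr4:36949849-36952380, was 2532 bp wide and 1.71 Mb away, at percentiles of 77.4 and 96.5. Both were wide and strong for this set of regions. The next 3, chr7:71354348-71355976, chr18:30490764-30491326 and chr11:37126523-37127801, lay 1.25 to 1.33 Mb away, with percentiles of 36.9 to 45.4 in knockout 1 and 58.2 to 75.7 in knockout 2.

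Many knockout-only regions lay near others of their kind. The count below was made for this class alone, and shared regions lay close together too, with 88.1% within 10 kb of another. Chained at gaps of at most 50 kb, they formed 2933 loci, of which 1609 (54.9%) held a single region. At least 5 regions were found in 263 loci, which together held 1823 regions, 29.5% of all, and 32 loci held 10 or more. By chromosome, they made up between 8.53% (chromosome 4) and 12.0% (chromosome 6) of all merged regions, so no chromosome stood far from the 9.98% of the whole.

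The locus with most of them, chr6:85995963-86259305, held 25 knockout-only regions in 263 kb. Bases under H3K27me3 peaks there were 1813 in control 1, 26881 in control 2, 45514 in knockout 1 and 64133 in knockout 2. The locus was thus not free of the mark in control 2, which had 29 peaks there, and it held 24 shared regions. Its H3K27ac was sparse, with 477, 369 and 0 bases in controls 1 to 3 and 0 in each knockout.

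Both other leading loci held 18 regions each. In chr19:4494560-4774964 the bases under H3K27me3 peaks were 4727 in control 1, 55819 in control 2, 52910 in knockout 1 and 91836 in knockout 2. Here knockout 1 was 0.948 times control 2, so that the locus held knockout-only regions without more H3K27me3 in total in that library. H3K27ac covered 1427, 1114 and 1088 bases of it in controls 1 to 3, against 2325, 1281 and 506 in the knockouts. The most was in H3K27ac knockout 1, which is from another chimera than H3K27me3 knockout 1. In chr8:36187702-36360001 the bases were 2995, 32963, 40293 and 66211 in the same order, with no H3K27ac in any library. Across the whole lists the bases under peaks were 0.760 times control 2 in knockout 1 and 1.55 times in knockout 2. The ratios at the 3 loci, 1.69, 0.948 and 1.22 for knockout 1 and 2.39, 1.65 and 2.01 for knockout 2, were all above these, and the loci were picked for their knockout-only regions.

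**Figure D3:**
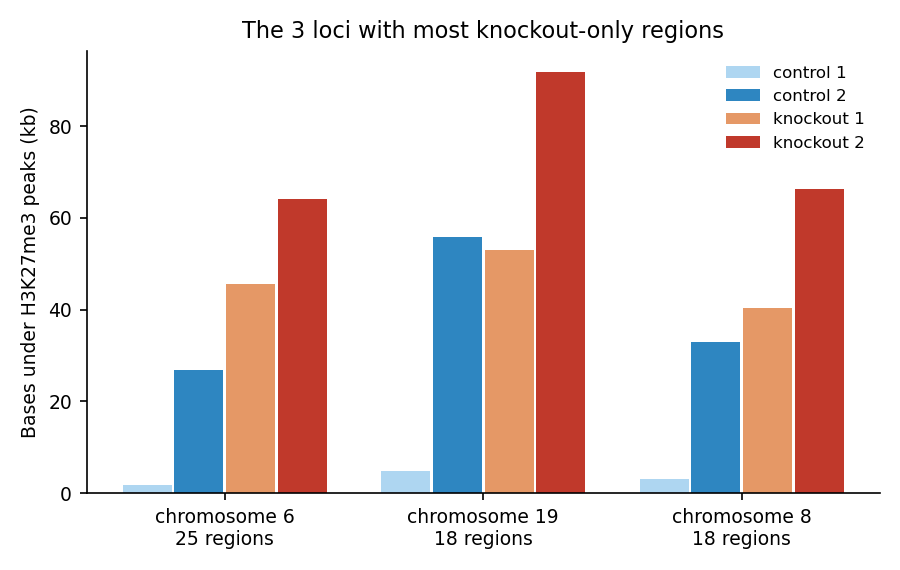
Bases under H3K27me3 peaks (kb) in each of the 4 libraries at the 3 loci with most knockout-only regions; each bar is 1 library. Control 2 carried H3K27me3 at all 3 loci (26881 to 55819 bases), and knockout 2 had the most at each of them.

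The second mark asks whether these regions lie where H3K27ac is found, and whether that H3K27ac differs between genotypes. Few knockout-only regions lay near H3K27ac. The median distance to the nearest H3K27ac peak of any of the 6 libraries was 62.6 kb, against 53.1 kb for regions of control 2 and both knockouts and 37.3 kb for those of control 2 only. Regions of knockout 1 only lay slightly farther, at 64.4 kb, and those of knockout 2 only nearer, at 51.8 kb. Within 10 kb of H3K27ac lay 405 regions, 6.54%, against 7.61% for control 2 and both knockouts, 13.1% for control 2 only, 4.86% for knockout 1 only and 10.3% for knockout 2 only. The isolated kind, with no shared H3K27me3 within 50 kb, came near H3K27ac most often among the 4 kinds, at 12.3% (51 of 413), against 3.52% of those with shared regions on both sides.

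Counted in each H3K27ac library, the share of knockout-only regions with H3K27ac within 10 kb was 5.32%, 4.46% and 4.62% in controls 1 to 3. It was 4.64%, 3.35% and 2.39% in knockouts 1 to 3. The groups overlapped, since knockout 1 lay above controls 2 and 3. The means were 4.80% ± 0.46 (SD, n = 3) in controls and 3.46% ± 1.13 (SD, n = 3) in knockouts, a difference of −1.34 percentage points. A two-sided exact permutation test gave p = 0.3 (0.45 after Benjamini-Hochberg adjustment over 3 tests), where 3 against 3 libraries cannot give less than 0.1. At 5 kb the groups did not overlap: H3K27ac lay near 103, 82 and 85 of the regions in controls 1 to 3 and near 81, 48 and 29 in the knockouts, a difference of −0.60 points with an exact permutation p of 0.1, the smallest possible. The separation was narrow, with 82 in control 2 against 81 in knockout 1. That p is unadjusted, and no 5 kb value is given for the regions of control 2 and both knockouts. Nor is a 5 kb value given for H3K27ac lists cut to equal length, although the lists differed in length, as described below.

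A difference of like size was found at the regions of control 2 and both knockouts. Their means were 5.59% ± 0.49 (SD, n = 3) in controls and 4.40% ± 1.58 (SD, n = 3) in knockouts, which differ by −1.19 points (exact permutation p = 0.3, adjusted 0.45). The gap between both classes of region changed by −0.15 points between genotypes, with an exact permutation p of 0.8. A fall in nearby H3K27ac that is particular to knockout-only regions was not detected by this count, which was made at 10 kb only. The number of H3K27ac peaks moved with it: the control libraries had 31337, 27410 and 29132, and the knockout libraries 27651, 23633 and 20900. With all H3K27ac lists cut to the length of the shortest, the difference at knockout-only regions was −0.61 points (exact permutation p = 0.4).

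**Figure D4:**
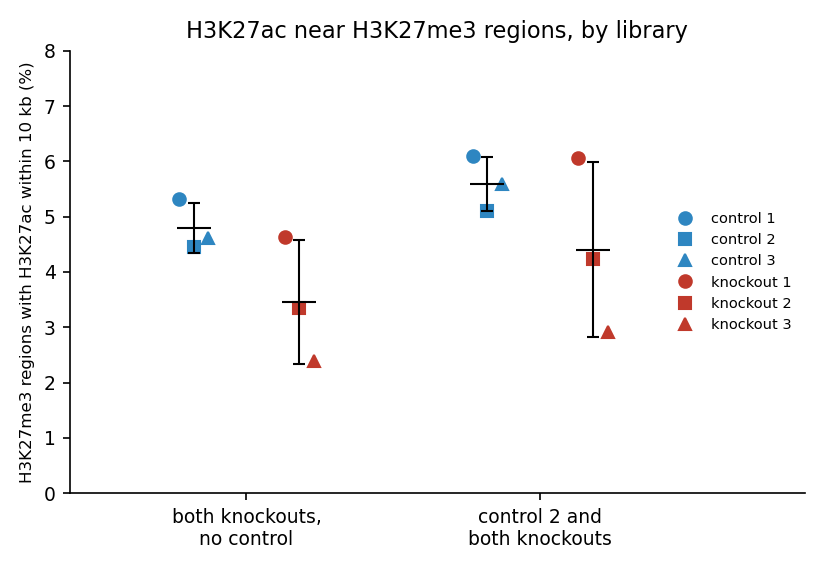
Share of H3K27me3 regions (percent) with an H3K27ac peak within 10 kb, in each H3K27ac library, for knockout-only regions (left) and regions of control 2 and both knockouts (right); lines are means ± SD of 3 libraries. In both classes the knockout mean is lower, and knockout 1 lies within the range of the controls.

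Direct overlap of a knockout-only region with H3K27ac was rare, and was seen in controls only. Controls 1 to 3 had H3K27ac on 7, 4 and 4 of these regions, and knockouts 1 to 3 on 0, 0 and 0. In all, 8 regions (0.129%) overlapped H3K27ac in a control and in no knockout, and 0 did the reverse. Over all 62035 merged regions these calls were made for 0.0999% and 0.00967%. Both shares are near the background. Chimera 2 of each genotype gave both an H3K27me3 list that the rule used and an H3K27ac list, so this direction is not independent of the rule.

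The same call was made for 0.175% of the regions of knockout 2 only. Of the 8 knockout-only regions, 3 had H3K27ac in all 3 controls, 1 in 2 of them and 4 in a single control. The region with most H3K27ac was chr16:90126356-90128501, 2146 bp wide, where 1266, 695 and 983 bases were under H3K27ac peaks in controls 1 to 3 and 0 in each knockout. H3K27me3 peaks covered 1211 of its bases in knockout 1 and 2131 in knockout 2. Its neighbour chr16:90128845-90129856 had 155 bases of H3K27ac in control 1 and 0 in the other 5 libraries. A second pair of neighbours lay on chromosome 4, with no shared H3K27me3 within 50 kb. There chr4:141678524-141679513 had 301, 522 and 528 bases of H3K27ac in controls 1 to 3, and chr4:141679879-141680674 had 486, 683 and 480, with 0 in each knockout. These pairs hold the 3 regions acetylated in every control.

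Of the other 4, chr5:86930643-86931119 had 181 bases of H3K27ac in control 1 and 263 in control 3. The remaining regions had it in a single control: chr9:104215872-104216925 with 245 bases in control 1, chr18:12772803-12775115 with 637 in control 1 and chr11:97003572-97004564 with 154 in control 2. The region on chromosome 18 was among the stronger knockout-only regions in knockout 1, at a percentile of 98.5, with 56.1 in knockout 2.

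H3K27ac near the knockout-only regions was tested over the whole genome in 10 kb bins, as log2 of the bases under peaks plus 100, with limma and Benjamini-Hochberg adjustment over 19295 bins at a threshold of 0.05. Over all bins, 435 were lower in knockouts (2.25%) and 112 higher (0.58%). Under quantile normalization in place of median centring, the split was 349 lower and 168 higher. Of the 427 tested bins within 10 kb of a knockout-only region, 18 (4.22%) were lower and 1 (0.234%) was higher. Near regions of control 2 and both knockouts, 18 of 1140 (1.58%) were lower and 1 higher, and 8 of the 18 lower bins near knockout-only regions were also near one of those.

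The median log2 difference was −0.28 over the 427 bins, −0.22 over the 1140 and −0.05 over all bins. With quantile normalization these medians were −0.01, −0.01 and 0.04, so the lower median near both classes depends on the scaling. The pseudocount sets its size too, since the median over the 427 bins was −0.32 with 10 bases and −0.11 with 1000.

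In each of the 18 lower bins all 3 controls lay above all 3 knockouts, and in 14 of them no knockout had a base under an H3K27ac peak. For those 14 no fold is given, because the knockouts are listed at 0. Within 10 kb of the 18 lower bins lay 24 knockout-only regions, and 6 of the bins held at least 1 such region.

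The lowest adjusted p, 0.0128 with limma, belonged to chr2:69930001-69940000, which is among those 14 bins. With no filter on empty bins its limma adjusted p was 0.00943. H3K27ac covered 3414, 2859 and 3155 bases of it in controls 1 to 3 and 0 in each knockout. In the bin and 10 kb on each side, H3K27me3 covered 0 bases in control 1, 51 in control 2, 1909 in knockout 1 and 3544 in knockout 2. These bins were kept for lying near knockout-only regions, so the direction of H3K27me3 in and around each of them is set by that choice and is given as a description only. The knockout-only region chr2:69939035-69939709 lay in the bin and chr2:69940420-69941291 just beyond its end. The adjoining bin chr2:69920001-69930000 was lower as well, with 8176, 7438 and 8805 bases in controls and 5476, 5239 and 4857 in knockouts (log2 difference −0.66, SE 0.11, limma adjusted p = 0.0382).

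The bin with most knockout-only regions was chr16:90120001-90130000, which held 4, among them the acetylated pair described above. Its H3K27ac was 1553, 743 and 983 bases in controls and 0 in each knockout (limma adjusted p = 0.034, and 0.0515 with no filter on empty bins). H3K27me3 in and around it covered 998 bases in control 2, 5565 in knockout 1 and 9109 in knockout 2, so control 2 was not free of the mark. The bin at chr18:12770001-12780000 holds the region on chromosome 18 described above. It had 2737, 1955 and 874 bases of H3K27ac in controls and 0 in each knockout (limma adjusted p = 0.0318, and 0.037 with no filter on empty bins). H3K27me3 there covered 1561 bases in control 2, 5495 in knockout 1 and 8107 in knockout 2.

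Among the bins with H3K27ac left in the knockouts, the largest difference was at chr12:110350001-110360000. It had 6261, 5516 and 5598 bases in controls and 2495, 1228 and 865 in knockouts (log2 difference −2.00, SE 0.32, limma adjusted p = 0.0343). The bin chr9:54540001-54550000 had 1667, 1184 and 1410 bases in controls and 439, 381 and 402 in knockouts (log2 difference −1.60, SE 0.30, limma adjusted p = 0.0468). A smaller difference, on a broad stretch of H3K27ac, was found at chr9:88210001-88220000, with 8708, 9539 and 9873 bases against 6346, 6555 and 4973 (log2 difference −0.68, SE 0.09, limma adjusted p = 0.0296). The single higher bin, chr7:98960001-98970000, had 4008, 3242 and 3919 bases of H3K27ac in controls and 5861, 7025 and 5361 in knockouts (log2 difference 0.67, SE 0.11, limma adjusted p = 0.0376).

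**Figure D5:**
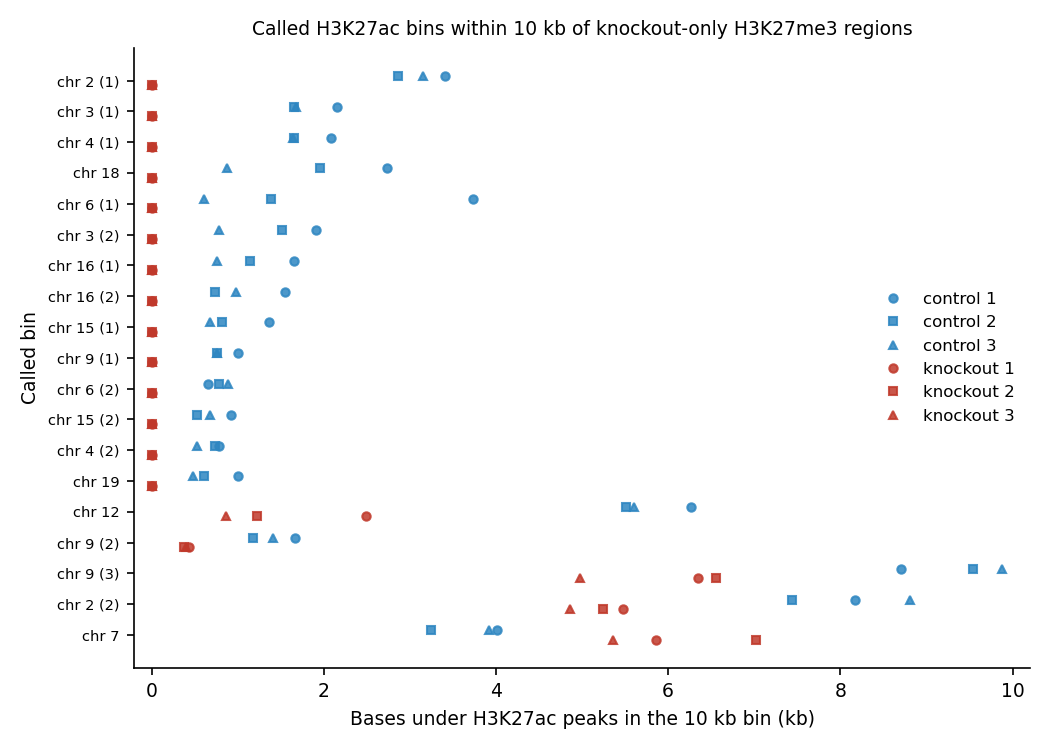
Bases under H3K27ac peaks (kb) in each of the 6 libraries for the 19 called 10 kb bins within 10 kb of a knockout-only region; bins of the same chromosome are numbered, and symbols at 0 lie on top of each other. In 18 bins every control lies above every knockout, with all knockouts at 0 in 14 of them, and in the bin on chromosome 7 the order is the opposite.

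The calls depended on single libraries. Without control 1, 2 or 3, limma called 0 bins lower near knockout-only regions (42, 42 and 43 at an unadjusted p under 0.05), without knockout 2 it called 1 and without knockout 3 it called 3, while without knockout 1 it called 45. With a pseudocount of 10 bases the count was 0 (45 at an unadjusted p under 0.05), with no filter on empty bins 9 and with quantile normalization 11. The counts over all bins, lower and then higher, moved likewise: 5 and 3 without control 1, 0 and 0 without control 2 or 3, 974 and 245 without knockout 1, 20 and 0 without knockout 2, 67 and 0 without knockout 3, and 26 and 4 with a pseudocount of 10 bases. The background shares printed above move with them.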

How the data were processed

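Regulatory T cells were profiled by CUT&Tag in 14 samples, of which the 10 with a peak list were used, while the 4 IgG samples were not analysed here. Per the submitters' processing notes, the authors used Bowtie2 2.2.4, deepTools 3.5.1, MACS2, ChIPseeker 1.30.3 and HOMER 4.11 with build mm39. Peaks were called separately for each library, per the labels, which give every list a sample of its own. Settings, background library and duplicate handling are not given in the sources used here. The deposited lists hold peak starts, ends and summit offsets, a score, the fold enrichment as a ratio, and the authors' p and q values as −log10. These are each peak's own values and were used only to describe, rank and filter peaks within a list. Read depth is not stated in a peak list.

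Here, H3K27me3 peaks of chromosomes 1 to 19 were merged from 1 bp of overlap, gaps were counted in bases between regions, and coordinates count from 1. A gap to control 2 ran to the nearest merged region with a control 2 peak. Pileup and background were solved from fold and −log10 p with a Poisson model. H3K27ac was tested by exact permutation over libraries and by limma 3.58.1 in R 4.3.3 on 10 kb bins, as log2(bases + 100), median-centred, with trended and robust variances. Bins of all chromosomes with a covered base in at least 3 libraries were tested. These steps were tested on simulated data. Regions named are the 10 with the highest mean percentile, the 5 widest, the 5 farthest from control 2, the 3 loci with most regions, 3 on each side of the rule's edge, and those nearest to H3K27ac, where 8 tied at 0. Called bins were singled out after their values were seen. The regions and lists were chosen with earlier results of these data known. Alternatives covered merging, peak threshold, list length, distance, pseudocount, filter, normalization and leaving out each library.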

Additional observations from a re-analysis of the deposited data

How the results depend on the processing

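Of 80 alternative values, 33 kept their call or size, 30 moved, 16 fell below the threshold or the count, 1 rose and 0 reversed. The number of knockout-only regions (6189) was 904 with 4 lists of equal length and ranged from 6201 to 24745 when 1 library was left out, where the rule then asks less: 21415 without control 2, 24745 without knockout 1 and 10979 without knockout 2. The share within 10 kb of a shared region (80.1%) was 74.9% with peaks under 500 bp apart merged, 78.1% with a −log10 q of at least 10, 45.0% with 4 and 77.0% with 3 lists of equal length, 70.3% at 5 kb, 93.3% at 50 kb, and 72.0% to 80.1% without 1 library. No value could be had without control 2. The H3K27ac difference at knockout-only regions (−1.34 points) kept its direction, from −0.60 at 5 kb to −4.50 at 50 kb, and from −1.93 to −0.81 without 1 library. Bins called lower by limma (18) were 0 with a pseudocount of 10 bases, 9 with no filter, 11 with quantile normalization and 0 to 45 without 1 library. The bin called higher (1) was 0 with that pseudocount and 0 to 1 without 1 library. The replicate numbers were not taken to pair samples, since deviations of same-numbered H3K27ac libraries correlated at 0.25, 0.05 and 0.01, and not every library correlated best with its own number. With the number as a replicate block, limma called 0 lower (58 at an unadjusted p under 0.05) and 0 higher (10) near these regions and 29 lower and 3 higher over all bins. The paired exact permutation test of the share gave −1.34 points with p = 0.25, the smallest that 3 pairs can give. The causes were not tested. A peak list shows where enrichment passed a threshold, so a missing peak is not the absence of a mark.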
